A study of Homo sapiens with 14 samples.

Results

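The comparison described here set PLB-985 cells cultured for 6 days in DMSO and Nutridoma (2 libraries) against undifferentiated PLB-985 cells (2 libraries), 4 of the 14 libraries of the experiment. The members were chosen by their labels alone: the line, the medium, day 6 and replicates 1 and 2, with each differentiated library set against the undifferentiated one of the same number. PLB-985 is a human myeloid leukemia line that is a sub-line of HL-60, and DMSO reduces its proliferation and turns it towards a neutrophil-like cell. All PLB-985 cells of the experiment, undifferentiated ones included, were a stable line that expressed histone H2B fused to mCherry. Undifferentiated cells grew in RPMI medium with 9% fetal bovine serum (FBS). Differentiated cells were kept in 1.3% DMSO, 2% Nutridoma, a serum substitute, and 0.5% FBS, so the groups differed in serum as well as in DMSO and Nutridoma. Beside them stand PLB-985 cells after 6 days in 1.3% DMSO with 9% FBS, and HL-60 cells, undifferentiated and after 6 days in DMSO and Nutridoma, each with 2 libraries. Replicates 1 and 2 came from separate runs of the whole experiment on different days. All differentiated cells were harvested as 1 bulk population, so fewer cells of a kind and less of an RNA in each cell cannot be told apart.

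Neutrophils mature in the bone marrow from dividing promyelocytes. Promyelocytes make the proteases and peroxidase of the azurophil granules, and later stages stop dividing, close down the synthesis of granule proteases and acquire the receptors, integrins and oxidase with which a mature neutrophil finds and kills microbes. DMSO has long been used to drive HL-60 cells along part of this course, and the formyl peptide receptor FPR1, through which neutrophils sense bacterial peptides, is a usual sign that it has worked. In the text below a level is in normalized FPKM, which is fragments per kilobase of transcript scaled by the authors with 1 factor per library, and a fold change is the log2 difference of (level + 1) between DMSO and Nutridoma and undifferentiated cells. Levels within a library are shares of that library, not amounts per cell. A gene is called higher or lower where the adjusted p of limma, which fitted the 12 replicated libraries of both lines together, was under 0.05. Since the tables give FPKM without counts, the counting error of a level is not known.

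Of 60707 rows, 13778 were high enough to be tested, of which 3303 (24%) were higher and 4934 (35.8%) lower in DMSO and Nutridoma than in undifferentiated cells, 59.8% in all. Without the replicate term 2617 and 3735 passed, and without undifferentiated replicate 1 2390 and 3963. A change of at least 2-fold was found for 1662 rows (12.1%) upward and 2684 (19.5%) downward, and 47.2% of the rows that passed had a smaller change than that. The median log2 fold change of all rows tested was −0.157, and the 5th and 95th percentiles were −1.92 and 1.78. The zero point of this scale depends on the scaling between libraries: without the authors' factor the median was −0.018 and 49.3% of the rows that passed were higher, against 40.1% with it. Every DMSO and Nutridoma library lay above every undifferentiated one in 31.1% of rows and below in 40.8%. These shares are the background for each gene group below. A row under 1 in both undifferentiated libraries was tested only where 2 or more other libraries reached 1, so it had little room to be lower. The count of higher genes in a list with many such rows is therefore no test of direction.

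The 4 libraries differed in composition as well. Mitochondrially encoded transcripts held 2.60% and 5.84% of the summed FPKM in undifferentiated replicates 1 and 2, and 5.38% and 10.07% after differentiation. The 10 most abundant rows held 8.75% and 10.3% before and 15.3% and 14.9% after. The row AC006483.1 alone held 1.32% and 4.81% in the libraries of replicate 1 and was listed at 0 in those of replicate 2. The cause of these differences between the runs was not tested.

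The genes with the largest increase encode receptors, adhesion molecules and cytosolic proteins of mature neutrophils. FPR1 (ENSG00000171051.8, chr19:51745172-51804115, GRCh38) was at 0.551 and 0.593 in the undifferentiated libraries and at 333 and 211 in the differentiated ones. Its log2 fold change was 7.40 ± 0.25 (SE, limma adjusted p = 2e-06), the largest among all rows that passed. The second formyl peptide receptor, FPR2, was at 0.361 and 0.424 before and 106 and 100 after (6.23 ± 0.23). AMICA1, which encodes the junctional adhesion molecule JAML, went from 1.20 and 0.731 to 221 and 204 (6.77 ± 0.29). VNN2, which encodes the membrane-anchored pantetheinase GPI-80 of neutrophils, was at 0.0735 and 0.0958 before and at 120.2 and 78.1 after (6.5 ± 0.52). SERPINA1, the inhibitor of neutrophil elastase, went from 3.33 and 3.53 to 338 and 424 (6.42 ± 0.18). In each of these genes both differentiated libraries lay far above both undifferentiated ones. Next came S100A9, S100A8, PADI4, ITGAX, HP and FAM65B, with log2 fold changes from 5.59 to 6.2. PADI4, the enzyme that citrullinates histones, was at 1.06 and 1.05 before and 177 and 109.7 after. HP, which encodes haptoglobin, was at 1.07 and 1.31 before and 182 and 73.1 after. FAM65B, also named RIPOR2, was at 0.0174 and 0.0363 before and 53.1 and 44.1 after.

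The largest decreases fell on a granule protease, defensins, the oncogene MYC and enzymes and transporters of amino acids. PRTN3, proteinase 3 of the azurophil granules, was at 1217 and 766 in undifferentiated cells and at 38.8 and 1.51 in differentiated cells (−6.60 ± 0.98, limma adjusted p = 0.00063). The differentiated libraries differed from each other more than in most genes, and both lay below the undifferentiated ones. GAL, the neuropeptide galanin, went from 148 and 132 to 5.24 and 1.17 (−5.26 ± 0.48). SLC38A5, a transporter of glutamine and glycine, went from 138 and 104 to 5.04 and 1.40. PSAT1, an enzyme of serine synthesis, went from 124 and 137 to 6.97 and 3.48. RAC3, a Rac GTPase, went from 124 and 103 to 5.43 and 2.13, and ASS1, the argininosuccinate synthase, from 439.9 and 177 to 18.7 and 6.12. DEFA1 and DEFA1B (defensin genes of nearly identical sequence, so reads may have been split between them), PLPPR3 and ACTL8 complete the list with HSPA8, which is treated with the rows listed at 0.

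**Figure D1:**
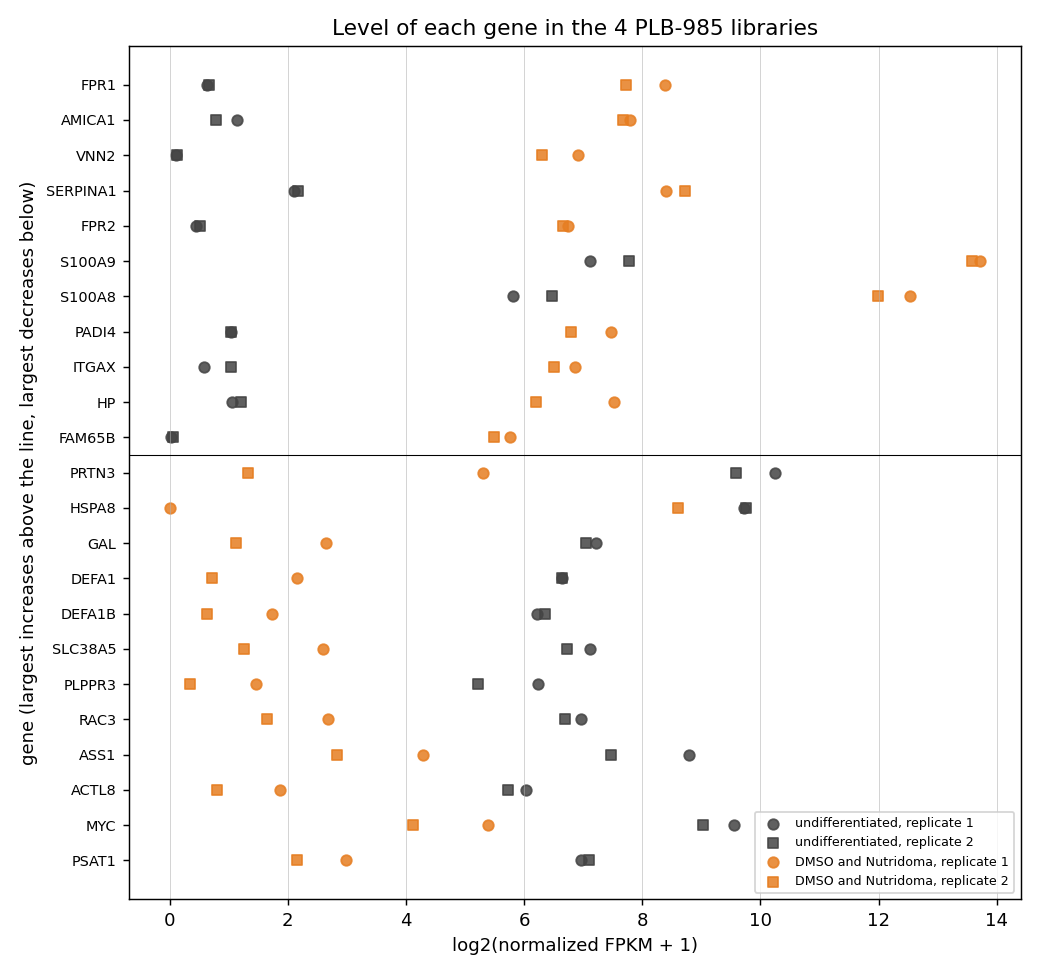
Level of 11 of the 12 genes that rose most and of the 12 that fell most in the 4 PLB-985 libraries, as log2(normalized FPKM + 1) on the x axis, with 1 row per gene, gray points for undifferentiated and orange points for DMSO and Nutridoma libraries, circles for replicate 1 and squares for replicate 2. The gray and the orange points of each gene stay apart, and HSPA8 has 1 orange circle at 0 while the other orange point lies near its gray ones.

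Both runs gave nearly the same picture. The log2 fold changes of replicate 1 and replicate 2 had the same sign in 87.9% of rows tested and in every row that passed, and across genes Pearson's r was 0.89 and Spearman's rho 0.906 (genes are not independent replicates, and both runs entered the fit). In 59 rows both undifferentiated libraries were under 1 and both differentiated libraries at 10 or more, among them FPR1, FPR2, TLR8, AQP9, LILRB2, BCL6 and TNFSF10. The reverse, at 10 or more before and under 1 after, was met by 6 rows: IGLL1, SLAMF8, MZB1, DDN, CERS1 and RAB7B. IGLL1, the surrogate light chain of B cell precursors, was at 26.6 and 16.8 before and at 0.724 and 0 after. These 6 were named after their values were seen.

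**Figure D2:**
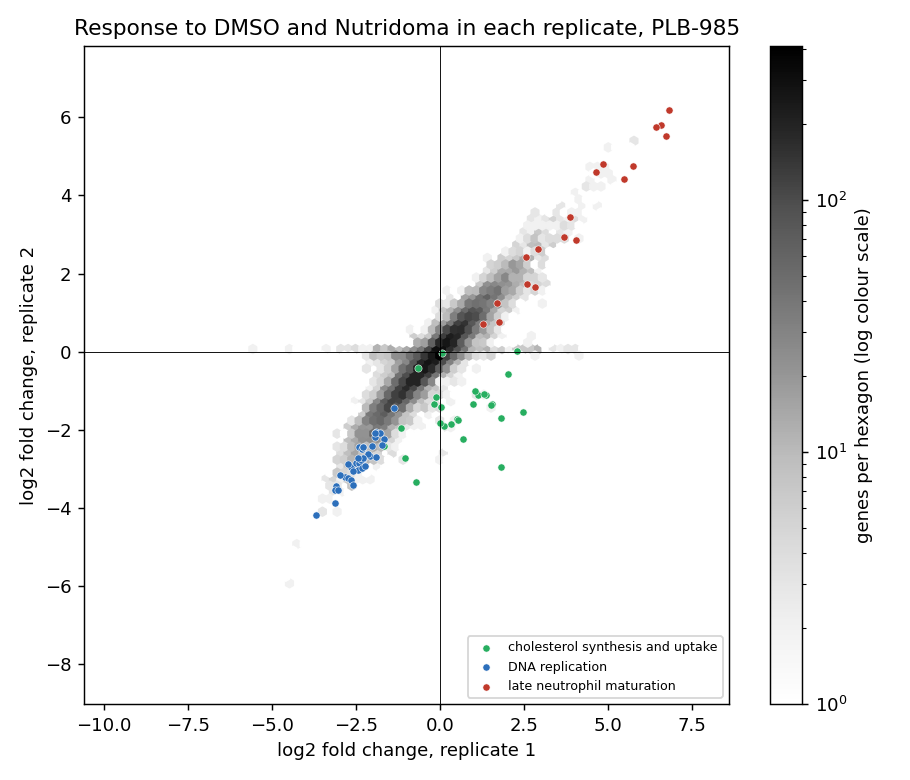
Log2 fold change of each tested row in replicate 1 (x axis) and replicate 2 (y axis), with the number of rows per hexagon in gray on a log colour scale and the members of 3 gene lists as coloured points. Late neutrophil maturation genes (red) lie in the upper right and DNA replication genes (blue) in the lower left, whereas 19 cholesterol genes (green) lie in the lower right, higher in replicate 1 and lower in replicate 2.

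The tested genes of late neutrophil maturation were all higher. Of 21 genes listed, 18 were tested and all 18 were higher, with a median log2 fold change of 3.56 (lowest 1.00, highest 6.5). In all 18 every differentiated library lay above every undifferentiated one, against 31.1% of all rows. Members under 1 in both undifferentiated libraries, as VNN2 and FCGR3B, were tested only through other libraries. The count thus follows in part from which genes were tested. The group was led by the calcium-binding proteins S100A8 and S100A9, which form calprotectin, the most abundant cytosolic protein of neutrophils. S100A9 (chr1:153357854-153361023) was at 138 and 219 before and at 13470 and 12290 after (6.20 ± 0.37, limma adjusted p = 1.2e-05). S100A8 went from 55.1 and 87.4 to 5960 and 4055. In differentiated replicate 2, S100A9 was the most abundant row of all. S100A12, the third calgranulin, went from 1.42 and 2.75 to 129 and 99.8. CSF3R, the G-CSF receptor, was already expressed at 29.1 and 23.1 and reached 178 and 129. The complement receptor CR1 rose from 2.01 and 2.60 to 86.3 and 99.6. Other members reached only low levels: FCGR3B, which encodes the Fc receptor CD16b that marks mature neutrophils, was at 0.0546 and 0.0885 before and 1.6 and 0.769 after, and the interleukin 8 receptor gene CXCR2 at 1.54 and 1.5 before and 14.4 and 7.31 after. The 3 members not tested were ALPL, HAL and CD177.

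The S100A12 promoter is shown because the genes of this list carried the C/EBP motif more often than promoters in general. RefSeq promoters on GRCh38.p14, from 250 bases before to 50 bases after a transcript start, were matched for 9267 of the tested genes, with 13402 windows in all. The letters TTGCNNAA, searched on both strands as the motif of C/EBP factors, were in 7 of 20 windows of the list (35.0%) and in 7.55% of all windows, as were the letters TTTGAA, in 35.0% against 10.5%, while GAGGAAGT, the motif of PU.1, was in 0 of the 20 and in 2.90% of all windows. The C/EBP motif was as well in 26.7% of 15 windows of the azurophil granule list, in which most genes were lower. The 200 bases before the start of S100A12 (chr1:153375622-153375821, minus strand) and of PRTN3 (chr19:840799-840998, plus strand) are printed 5′ to 3′ with C/EBP motifs (either strand) and, for PRTN3, the PU.1 motif in capitals. The C/EBP motif lay 94 bases before the start of S100A12, and in PRTN3 the C/EBP and PU.1 motifs lay 62 and 88 bases before it. Both genes thus hold a C/EBP motif in this window although one was among the strongest increases and the other the strongest decrease.
S100A12: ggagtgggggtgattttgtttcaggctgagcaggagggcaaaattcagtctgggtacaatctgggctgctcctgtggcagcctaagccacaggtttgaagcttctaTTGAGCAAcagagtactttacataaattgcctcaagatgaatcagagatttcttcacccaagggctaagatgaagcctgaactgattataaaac
PRTN3: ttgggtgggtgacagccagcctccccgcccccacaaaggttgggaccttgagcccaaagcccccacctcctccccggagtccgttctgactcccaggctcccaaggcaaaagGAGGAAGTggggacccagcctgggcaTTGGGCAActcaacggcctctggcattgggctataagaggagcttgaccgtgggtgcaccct

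**Figure D3:**
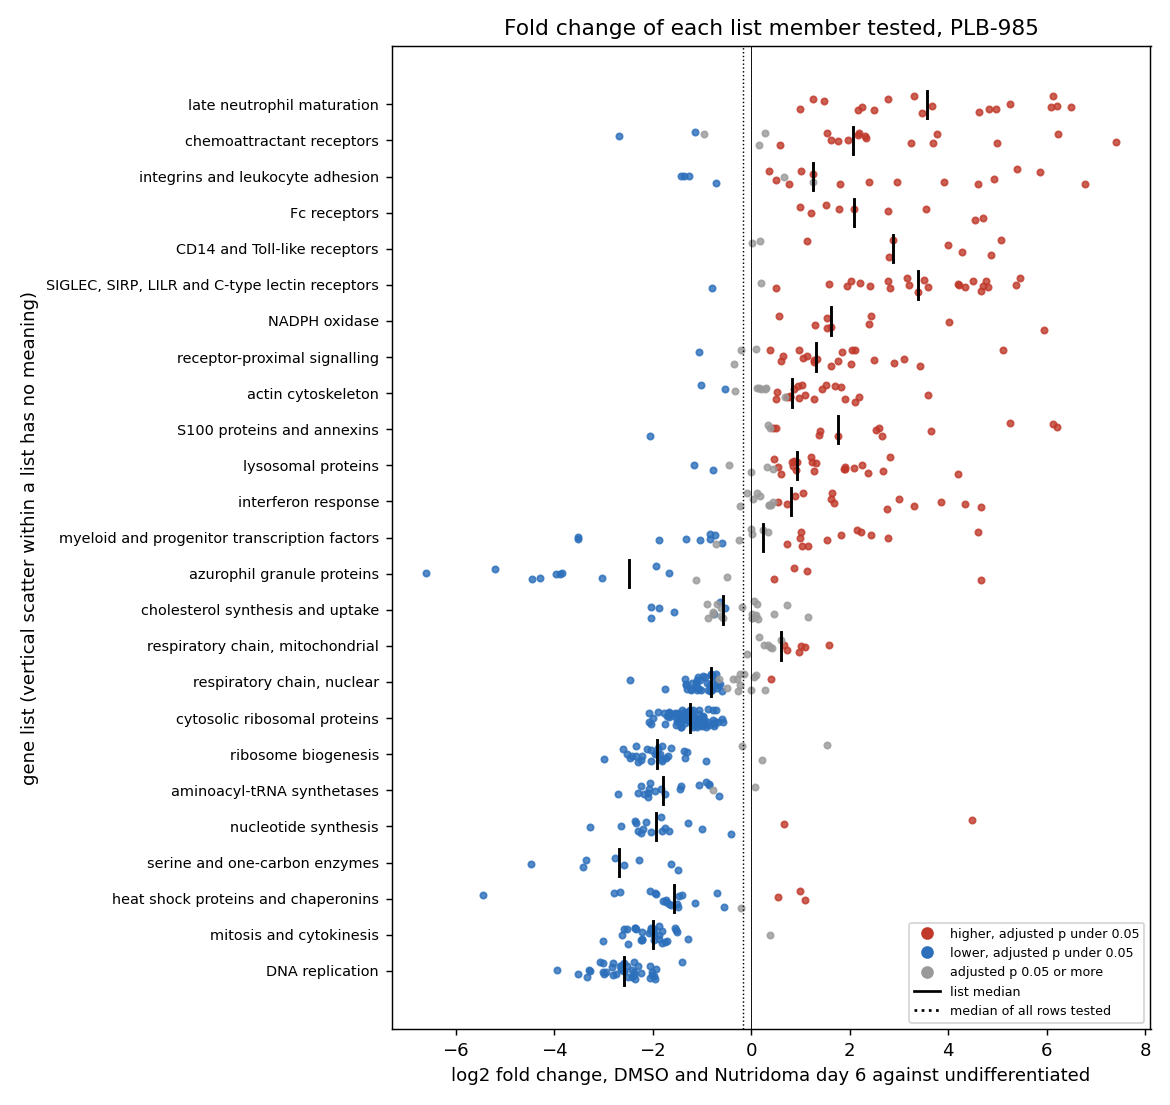
Log2 fold change of each tested member of 25 gene lists (x axis), with 1 row per list, red for higher, blue for lower and gray for genes that did not pass, a black bar at the list median and a dotted line at the median of all rows tested (−0.157). The receptor, adhesion, oxidase and maturation lists lie to the right, and the lists for ribosomes, amino acids, nucleotides, replication and mitosis to the left.

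The granule proteins did not move as 1 group. Of 16 azurophil granule genes, all tested, 10 were lower and 4 higher (median −2.48). MPO, myeloperoxidase, fell from 5056 and 1752 to 671 and 195 (−3.04), the most abundant azurophil transcript of undifferentiated cells. ELANE, neutrophil elastase, went from 82.3 and 73.7 to 6.99 and 2.18. AZU1, CTSG and PRSS57, which encode the other serine proteases of these granules or their inactive relative, had log2 fold changes from −4.44 to −3.84. In contrast LYZ, lysozyme, rose from 19.6 and 13 to 488 and 377 (4.66). CD63, a membrane protein of the granules, rose from 245 and 168 to 606 and 331. BPI, the bactericidal permeability-increasing protein, was at 16 and 18.1 before and 38.4 and 26.4 after (0.87, limma adjusted p = 0.026), a call lost without the replicate term (limma adjusted p = 0.083) and without undifferentiated replicate 1. The calls of MPO and CD63 were also lost under at least 1 alternative that kept all libraries. Transcripts for proteins of the specific and gelatinase granules, which neutrophils make later, remained scarce in DMSO and Nutridoma, apart from HP. Only 7 of 14 listed genes were tested, of which 5 were higher and 1, CEACAM8, lower (median 0.73). LTF, LCN2, MMP8, OLFM4, ARG1, CRISP3 and TCN1 were too low to be tested in any group. CAMP, cathelicidin, went from 0.240 and 0.174 to 1.14 and 0.863, and MMP9, gelatinase B, from 0.323 and 0.0708 to 0.598 and 1.35. Apart from HP no gene of this list reached 100 in a DMSO and Nutridoma library. CHI3L1, also of specific granules, was higher in DMSO alone, as given below.

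The chemoattractant receptor list includes FPR1, the gene with the largest increase. Of 21 genes listed, 20 were tested, 15 were higher and 2 lower (median 2.07). C5AR1, the receptor of complement fragment C5a, went from 0.691 and 1.72 to 68.5 and 65.9. CCR1, a chemokine receptor, rose from 2.05 and 2.26 to 40.6 and 20.5, and LTB4R, a receptor of leukotriene B4, from 3.21 and 2.81 to 13.5 and 8.26. PTAFR, the receptor of platelet-activating factor, rose from 1.29 and 1.93 to 14.6 and 9.53. Of the interleukin 8 receptors, CXCR1 reached only 3.34 and 1.76. The purine receptors moved in different directions: P2RY13 rose from 0.400 and 0.228 to 22.2 and 11.3, while P2RY2, a receptor of extracellular ATP, fell from 35.9 and 29.7 to 5.08 and 3.49. CXCR4, which keeps immature neutrophils in the bone marrow, was at 59.2 and 78.0 before and 36.7 and 24.9 after (−1.14, limma adjusted p = 0.042). C3AR1 was at 8.31 and 34.1 before and 8.55 and 8.17 after and did not pass.

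The β2 integrins, with which neutrophils adhere and take up opsonized particles, rose strongly. ITGAM (CD11b) went from 1.92 and 1.63 to 139 and 95.6 (5.39 ± 0.16, limma adjusted p = 1.3e-06), ITGAX (CD11c) from 0.504 and 1.06 to 115 and 89.7, and their common β chain ITGB2 from 38.6 and 56.2 to 726 and 715. ITGAL (CD11a), another α chain that pairs with ITGB2, was at 17 and 19.7 before and 34.6 and 25 after and did not pass. Within the adhesion list 20 of 23 genes were tested, 14 were higher and 4 lower (median 1.25). The 4 lower genes were ITGA4 and ITGA5, α chains of β1 integrins, ICAM2 and CEACAM6. SELPLG, which encodes the P-selectin ligand, rose from 23.0 and 14.3 to 129 and 76.0. PECAM1 (CD31) went from 2.58 and 2.78 to 101 and 76.8. The promoter of AMICA1 (chr11:118212947-118213146, minus strand) and that of NCF1 (chr7:74773811-74774010, plus strand) are printed because each belongs to a strongly higher gene and holds the PU.1 motif (capitals), 51 and 47 bases before the start. Among promoters of genes higher by a log2 of at least 3 that motif was in 8.91% of 202 windows and the C/EBP motif in 14.9%, against 2.90% and 7.55% of all windows. Among genes lower by a log2 of at least 3 the shares were 1.89% and 12.3% of 106 windows, so the C/EBP motif was above the share of all windows in both directions.
AMICA1: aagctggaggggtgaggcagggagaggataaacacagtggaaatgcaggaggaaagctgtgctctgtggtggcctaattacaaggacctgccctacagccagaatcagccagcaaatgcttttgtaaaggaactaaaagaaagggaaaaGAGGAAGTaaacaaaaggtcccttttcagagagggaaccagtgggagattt
NCF1: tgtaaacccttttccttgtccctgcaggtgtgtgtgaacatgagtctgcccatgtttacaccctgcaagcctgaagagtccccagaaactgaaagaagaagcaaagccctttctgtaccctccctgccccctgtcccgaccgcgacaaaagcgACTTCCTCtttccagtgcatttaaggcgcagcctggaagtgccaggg

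All 9 genes of the phagocyte NADPH oxidase list were higher (median 1.63). In all 9 every differentiated library lay above every undifferentiated one, against 31.1% of all rows. The oxidase is a membrane-bound pair of subunits that is joined by cytosolic factors and Rac upon activation. Of the membrane pair, CYBB (gp91phox) rose from 26.0 and 31.3 to 176 and 143 and CYBA (p22phox) from 141 and 108 to 380.1 and 346. Of the cytosolic factors, NCF1 (p47phox) went from 10.8 and 22.3 to 224 and 315, a value that may share reads with the near-identical pseudogenes NCF1B and NCF1C, which were higher too (3.48 and 3.74). NCF4 (p40phox) was already at 109 and 91.9 and rose to 301 and 323. RAC2, the Rac of blood cells, rose from 165 and 146 to 514 and 402, and the proton channel HVCN1, which offsets the charge moved by the oxidase, from 8.16 and 8.82 to 69.8 and 33.9.

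Many receptors for antibody and microbial products were higher. Of 10 Fc receptor genes 9 were tested and all 9 were higher (median 2.08). FCER1G, the signalling chain shared by several of these receptors, went from 16.3 and 24.5 to 599.9 and 504, FCAR, the IgA receptor, from 2.60 and 5.17 to 102 and 116, and FCGR2A from 7.35 and 13.1 to 155 and 101. The FCGR1, FCGR2 and FCGR3 genes have near-identical copies, so the split between copies is uncertain. Of 14 genes for CD14, Toll-like receptors and their adaptors 9 were tested and 7 were higher (median 2.88). TLR8, a sensor of single-stranded RNA, went from 0.108 and 0.0376 to 37.9 and 31.9, and LY96 (MD-2), the partner of TLR4, from 0.281 and 0.467 to 39.7 and 38.5. TLR2 was listed at 0 in both undifferentiated libraries and at 0.0133 and 0.0225 after, and TLR4 went from 6.29 and 6.92 to 22.0 and 11. Of 27 SIGLEC, SIRP, LILR and C-type lectin genes, many of which encode inhibitory receptors, 25 were tested, 23 were higher and 1, CLEC12A, lower (median 3.39). In these lists, members under 1 in both undifferentiated libraries, as TLR8, LY96 and LILRB2, were tested only through other libraries. The counts thus follow in part from which genes were tested. LILRB2 went from 0.664 and 0.529 to 75.2 and 56.0, PILRA from 1.89 and 1.96 to 72.5 and 74.7, and CLEC7A (dectin-1), a receptor of fungal β-glucan, from 0.589 and 1.34 to 42.2 and 43.6. CD33, present at 45.2 and 37.1 before, was at 58.1 and 58.2 after. The LILR genes and the pair SIGLEC5 and SIGLEC14 are similar in sequence, and reads may have been split among them.

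The signalling proteins that act below these receptors were higher by smaller factors. Of 24 genes, all tested, 20 were higher and 1, GNA15, lower (median 1.31). The Src family kinase genes rose: LYN from 16.4 and 20.9 to 73.1 and 87.3 and FGR from 0.895 and 1.25 to 11.2 and 5.45. GNAI2, the inhibitory G protein subunit that couples to chemoattractant receptors, rose from 120.3 and 124 to 381 and 377. GNA15, a G protein subunit of the Gq family, fell from 37.6 and 43.4 to 16.4 and 21.9. PREX1, an exchange factor for Rac that senses Gβγ, rose from 11.8 and 10.2 to 60.4 and 73.0, and PIK3R5, the regulatory subunit of PI3Kγ, from 0.720 and 1.07 to 15.7 and 14.8.

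The actin cytoskeleton changed by less. Of 28 genes 19 were higher and 2 lower (median 0.83). ACTB rose from 2579 and 2122 to 6081 and 4136, whereas ACTG1, the other cytoplasmic actin, was at 2783 and 3269 before and 2056 and 2105 after (−0.54, limma adjusted p = 0.031), a call that was lost without the authors' factor, without the replicate term and when any 1 of the 4 libraries was left out. Subunits of the Arp2/3 complex, which nucleates branched actin, were unequal: ARPC5 rose from 69.2 and 75.1 to 252 and 223 and ARPC1B from 169 and 140.5 to 646 and 460.5, while ARPC2 was at 328 and 351 before and 440.3 and 384 after and did not pass. WAS, which activates this complex, rose from 34.9 and 30.1 to 140.4 and 108, and VASP, which elongates filaments, from 53.0 and 38.7 to 254 and 156. EVL, a relative of VASP, fell from 73.7 and 56.6 to 33.0 and 29.9. CAPG, a capping protein, had the largest change of the list, from 11.8 and 14.7 to 205 and 141. Of 15 tested genes for S100 proteins and annexins 12 were higher and 1, S100P, lower (median 1.76), among them S100A4 with 169.7 and 161 before and 1995 and 2169 after, and S100A11 with 239 and 277 before and 1666 and 1460 after.

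Lysosomal genes and part of the lipid mediator pathway were higher. Of 27 lysosomal genes 21 were higher and 2, GLA and GUSB, lower (median 0.92). CD68 went from 4.86 and 3.65 to 97.5 and 92.7, the cathepsin gene CTSB from 49.8 and 48.2 to 226 and 245, and CTSS from 62.6 and 48.8 to 225 and 249.6. Of the leukotriene enzymes, ALOX5, the 5-lipoxygenase, went from 1.78 and 2.64 to 28.1 and 25.6, its helper ALOX5AP from 56.7 and 92.7 to 191 and 169, and LTA4H, which makes leukotriene B4, from 23.6 and 27.3 to 111 and 81.0. In the whole list of lipid mediator enzymes 5 of 11 tested genes were higher and 3 lower (median 0.09), the lower ones being PTGES2, PTGES3 and PLA2G4A. PTGS2, the inducible cyclooxygenase, was listed at 0.0513 and 0 before and at 0 in both libraries after.

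Transcription factors moved in both directions. Of 34 genes 27 were tested, 12 were higher and 9 lower (median 0.23). SPI1, which encodes PU.1, was at 114 in both undifferentiated libraries and at 253 and 206 after (1.00 ± 0.13, limma adjusted p = 0.0003). Of the C/EBP family, CEBPB rose from 5.94 and 7.51 to 23.7 and 19.2 and CEBPD from 4.96 and 3.80 to 33.8 and 22.8, while CEBPA fell from 67.3 and 46.5 to 29.4 and 32.2. CEBPE, which acts in the promyelocyte to myelocyte step and drives specific granule genes, fell from 76.1 and 79.1 to 35.0 and 26.1. The progenitor factors fell further: MYB from 113 and 133 to 13.1 and 7.31, and GATA2 from 24.4 and 72.4 to 3.16 and 2.4. GFI1, a repressor that neutrophil precursors need, fell from 51.2 and 46.6 to 16.9 and 9.23. BCL6, a repressor, was at 0.186 and 0.499 before and 45.6 and 21.9 after, the largest rise of the list (4.61). KLF2, KLF6 and ID2 were higher by 2.14 to 2.78 on the log2 scale. The calls of CEBPA, CEBPE and KLF2 were each lost under at least 1 alternative that kept all libraries.

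MYC fell, while its antagonists MXD1 and MXD4 rose. MYC went from 750.1 and 518 to 41.1 and 16.4 (−4.53 ± 0.26, limma adjusted p = 1.1e-05). MXD1, which competes with MYC for the partner MAX, rose from 4.62 and 6.62 to 44.1 and 26.3 and MXD4 from 6.70 and 5.74 to 25.6 and 23.4. MAX itself was at 48.2 and 53.7 before and 42.7 and 44.3 after and did not pass. In the network list 3 of 10 genes were higher, 2 lower and 5 did not pass (median 0.17), beside 24% higher and 35.8% lower among all rows tested. Early response genes gave no common direction: of 16 genes 3 were higher (FOS, FOSL2, DUSP1) and 3 lower (JUND, ATF3, DUSP2). Several of them were higher in both libraries of replicate 2 than in those of replicate 1, as EGR1, with 2.68 before and 2.2 after in replicate 1 and 9.75 and 7.38 in replicate 2.

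The genes of DNA replication fell without exception. All 39 listed genes were tested and lower, with a median of −2.58 and every differentiated library below every undifferentiated one, against 40.8% of all rows. MCM6, a subunit of the replicative helicase, went from 92.7 and 88.0 to 13.1 and 8.42 (−2.99 ± 0.17, limma adjusted p = 1.1e-05). CDT1, which loads the helicase onto origins, fell most, from 87.7 and 50.5 to 5.83 and 1.83 (−3.94). PCNA, the sliding clamp, remained at 49.3 and 45.5 of its former 204 and 248. RFC2, a subunit of the clamp loader, fell least, from 66.2 and 47.3 to 25.4 and 16.8 (−1.40). Of 33 genes of mitosis and cytokinesis 32 were lower (median −1.99). PLK1, a mitotic kinase, went from 91.1 and 83.6 to 16.5 and 11.4, CCNB2, a mitotic cyclin, from 45.0 and 49.7 to 10.9 and 7.97, and CDC20, which activates the anaphase-promoting complex, from 74.6 and 63.7 to 18 and 8.91. MKI67 was still at 14.3 and 8.14, from 36.8 and 44.5. The exception was CCNA2, listed at 0 in undifferentiated replicate 1 and at 48.5 in replicate 2, with 9.60 and 6.92 after.

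The regulators of the cell cycle moved in both directions. Of 25 tested cyclins, kinases, inhibitors and E2F factors 10 were higher and 11 lower. CDK4 went from 226 and 197 to 32.1 in both differentiated libraries, CDK6 from 13.1 and 13.7 to 1.09 and 1.14, and E2F1 from 19.6 and 21.9 to 3.59 and 2.73. Of the D cyclins, which activate CDK4 and CDK6, CCND1 fell from 17.2 and 19.1 to 3.33 and 5.28 and CCND2 from 14.4 and 13.9 to 4.66 and 5.40, whereas CCND3 rose from 46.8 and 45.5 to 191 and 116. The inhibitors CDKN1A (0.499 and 4.08 before, 13.1 and 16.6 after) and CDKN2D (4.42 and 5.77 before, 31.7 and 20.9 after) were higher. CDKN1B was at 22.9 and 22.7 before and 26.6 and 23.5 after and did not pass.

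Promoters of these genes are printed because their lists differ from promoters in general in the motifs they hold. Mitotic genes are known to be controlled through a cell cycle homology element, for which the letters TTTGAA were searched, next to CCAAT boxes bound by NF-Y, and replication genes through E2F sites, for which TTTCCCGC, TTTCGCGC, TTTGGCGC and TTTGCCGC were searched, all on both strands. Of 34 windows of mitosis genes 76.5% held CCAAT and 64.7% TTTGAA, against 35.0% and 10.5% of all windows, and 18 of the 34 (52.9%) held both, against 4.13% of all. Of 46 windows of replication genes 45.7% held an E2F motif, against 5.23% of all, and 58.7% held CCAAT. The capitals below mark CCAAT and TTTGAA in CCNB2 (chr15:59104946-59105145, plus strand), PLK1 (chr16:23678689-23678888, plus strand) and CDC20 (chr1:43358781-43358980, plus strand), and the E2F motif in MCM6 (chr2:135876444-135876643, minus strand) and CDT1 (chr16:88803589-88803788, plus strand). CCNB2 has CCAAT boxes 120, 87 and 54 bases before the start, followed by TTTGAA at 29. PLK1 has the same order, with CCAAT at 73 and TTTGAA at 29. CDC20 has CCAAT at 100 and 55 and TTTGAA at 178 and 65. In MCM6 overlapping E2F motifs lay at 152 and 148 bases and again at 90 and 86 bases, and in CDT1 the motif lay once, 35 bases before the start.
CCNB2: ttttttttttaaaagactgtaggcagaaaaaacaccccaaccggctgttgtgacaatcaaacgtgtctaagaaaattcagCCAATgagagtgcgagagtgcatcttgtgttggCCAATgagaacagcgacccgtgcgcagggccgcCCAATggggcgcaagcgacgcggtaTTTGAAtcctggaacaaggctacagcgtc
PLK1: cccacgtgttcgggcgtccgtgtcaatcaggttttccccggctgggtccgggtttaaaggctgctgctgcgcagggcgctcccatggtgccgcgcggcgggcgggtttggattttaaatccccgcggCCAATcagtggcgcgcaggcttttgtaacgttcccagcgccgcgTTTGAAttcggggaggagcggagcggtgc
CDC20: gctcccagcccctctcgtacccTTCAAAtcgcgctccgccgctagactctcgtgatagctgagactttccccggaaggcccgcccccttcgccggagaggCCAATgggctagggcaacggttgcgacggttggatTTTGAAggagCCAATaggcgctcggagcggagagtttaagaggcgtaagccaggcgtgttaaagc
MCM6: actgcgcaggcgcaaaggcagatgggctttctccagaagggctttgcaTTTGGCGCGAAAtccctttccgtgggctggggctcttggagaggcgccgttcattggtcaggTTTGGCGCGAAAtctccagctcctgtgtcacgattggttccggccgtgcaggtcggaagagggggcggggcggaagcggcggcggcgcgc
CDT1: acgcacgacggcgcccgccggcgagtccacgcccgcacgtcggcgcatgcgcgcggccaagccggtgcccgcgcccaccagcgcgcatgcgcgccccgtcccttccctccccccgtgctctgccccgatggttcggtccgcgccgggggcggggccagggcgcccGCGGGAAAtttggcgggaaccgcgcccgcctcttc

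**Figure D4:**
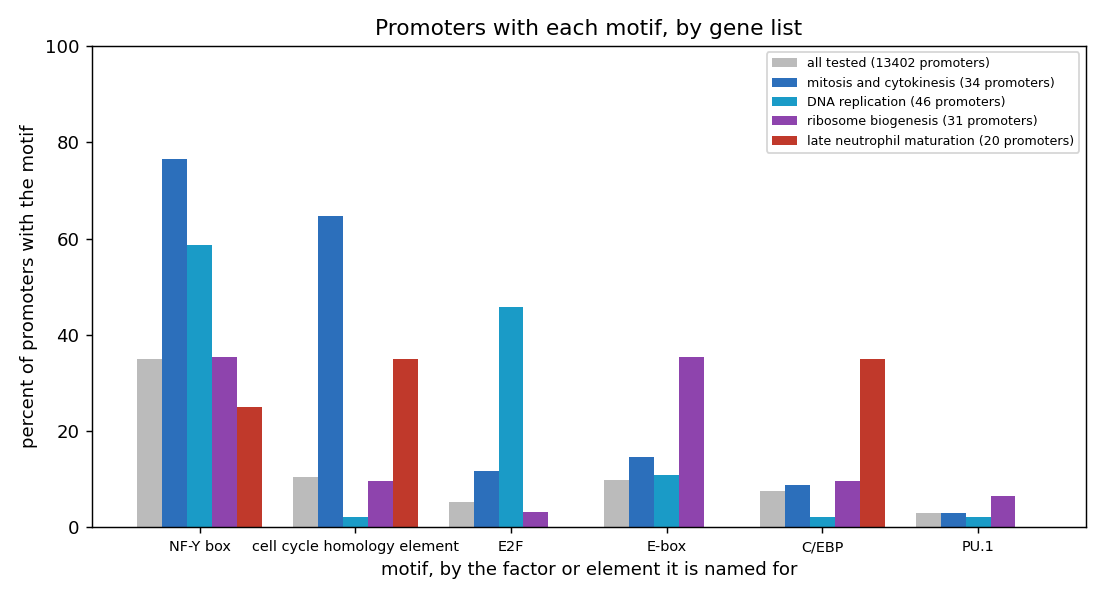
Percent of promoter windows that hold each of 6 motifs (y axis), for all tested genes (gray) and for 4 gene lists (coloured bars). The bars of mitosis genes are highest at the NF-Y box (76.5%, the letters CCAAT) and the cell cycle homology element (64.7%), those of replication genes at the NF-Y box (58.7%) and E2F (45.7%), and those of ribosome biogenesis are equal at the E-box and the NF-Y box (35.5%).

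Most genes of ribosome biogenesis were lower. Of 30 ribosome biogenesis genes 27 were lower and none higher (median −1.91). NPM1, nucleophosmin, went from 3936 and 3572 to 748 and 782, FBL, the methyltransferase of the box C/D particles, from 623 and 581 to 80.2 and 69.5 (−2.99), and DDX21, a nucleolar helicase, from 130.3 and 157 to 19.5 and 38.6. The 3 genes that did not pass were RRP12, NOP10 and NHP2, the last listed at 0 in 1 library. The E-box CACGTG, to which MYC with MAX binds, was in 35.5% of 31 windows of this list and in 9.77% of all windows. It was also in 31.8% of 22 windows of the lysosomal list, in which most genes were higher, in 5.13% of 78 windows of ribosomal protein genes and in 4.76% of 21 windows of aminoacyl-tRNA synthetases. In the DDX21 promoter (chr10:68956447-68956646, plus strand) it lay 31 bases before the start, where it stands in capitals.
DDX21: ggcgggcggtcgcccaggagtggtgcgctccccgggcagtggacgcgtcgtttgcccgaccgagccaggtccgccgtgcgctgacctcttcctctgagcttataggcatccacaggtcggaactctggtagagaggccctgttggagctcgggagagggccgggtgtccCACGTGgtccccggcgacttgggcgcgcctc

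All 79 cytosolic ribosomal protein genes were lower (median −1.25). In every one both differentiated libraries lay below both undifferentiated ones, against 40.8% of all rows. Together they held 26.2% and 31.0% of the summed FPKM before and 14% and 17.3% after. RPLP0 went from 4797 and 4401 to 1167 and 1006 and RPS3 from 6684 and 5959 to 2314 and 1940. Without the authors' factor 77 of the 79 still passed as lower. Their level depends in part on what else a library holds, since FPKM are shares, and the total RNA per cell was not measured.

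Enzymes that make the building blocks of nucleic acids and proteins fell as well. Of 18 tested genes of nucleotide synthesis 16 were lower (median −1.93), among them CAD, which starts pyrimidine synthesis, from 48.5 and 37.2 to 8.45 and 7.33, and NME1, a nucleoside diphosphate kinase, from 165 and 190.1 to 15.2 and 19.9. Of the 2 higher, IMPDH1 rose from 37.9 and 41.7 to 63.0 and 65.1 while its isozyme IMPDH2 fell from 315 and 263 to 90.6 and 90.0. The other, PAICS, was listed at 0 in every undifferentiated library of both lines and at 15.9 and 28.4 after, and such a 0 can be a failed estimate. All 8 tested genes of serine and one-carbon metabolism were lower (median −2.68), as PHGDH, the first enzyme of serine synthesis, from 114 and 101 to 10.3 and 8.0. Of 20 aminoacyl-tRNA synthetases 18 were lower (median −1.79), and SARS and WARS did not pass. Of 14 amino acid transporters 9 were lower and 3 higher (median −1.35). SLC7A5, which imports large neutral amino acids, fell from 55.5 and 59.3 to 7.04 and 8.62, whereas SLC36A1, which exports amino acids from lysosomes, rose from 2.71 and 3.12 to 9.72 and 11.9.

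Most chaperones fell too. Of 22 genes 18 were lower and 3 higher (median −1.56). The lower ones include HSPA8, which was listed at 0 in differentiated replicate 1. HSPD1, the mitochondrial chaperonin, went from 625 and 706 to 91.4 and 100.1, and HSP90AB1 from 551 and 619 to 136 and 169.9. All 8 subunits of the cytosolic chaperonin fell, by 1.40 to 1.95 on the log2 scale. The higher members were the stress-inducible HSPA1A and HSPA1B, which are near-identical, and DNAJB1, at 23.1 and 31.0 after, from 16.3 and 20.

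Respiratory chain genes differed by the genome that encodes them. Of 50 nuclear genes 37 were lower and 1, NDUFA2, higher (median −0.81), and ATP5G1, a subunit of the ATP synthase ring, fell most, from 235 and 161 to 35.3 and 33.3. Without the authors' factor 31 of the 50 were lower. Of 13 mitochondrially encoded genes 6 were higher and none lower (median 0.60), and 9 were higher without the factor. MT-ND5 rose from 264 and 584 to 828 and 1681. The runs differed in these genes as well: MT-CO2 was at 2755 and 4801 in replicate 1 and at 5759 and 7592 in replicate 2, before and after.

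Glucose metabolism changed gene by gene. Of 27 genes 7 were higher and 9 lower (median −0.29), shares near those of all rows tested (24% and 35.8%). SLC2A3, the high-affinity glucose transporter, rose from 0.810 and 15 to 180.5 and 147 and SLC2A1 fell from 25.1 and 18.3 to 5.13 and 8.41. HK3, a hexokinase of myeloid cells, rose from 1.05 and 1.01 to 113 and 58.0. The dehydrogenase subunit LDHB fell from 993 and 671 to 179 and 128 and LDHA from 756 and 1117 to 286 and 335. GAPDH was at 2171 and 2756 before and 1997 and 2007 after and did not pass.

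Cholesterol genes moved in opposite directions in the runs. Of 27 tested genes 7 were lower and none higher, and the median was 0.53 in replicate 1 and −1.41 in replicate 2. In 19 of the 27 the gene was higher after differentiation in replicate 1 and lower in replicate 2. HMGCS1, an early enzyme of the pathway, was at 6.75 before and 26.3 after in replicate 1, and at 74.0 before and 8.72 after in replicate 2. The list held 0.141% of the summed FPKM before and 0.219% after in replicate 1, and 0.285% and 0.109% in replicate 2. The 7 that passed included ACACA, FASN and SCD, enzymes of fatty acid synthesis, and SREBF1, a regulator of lipid synthesis, which were lower in both runs. What the runs differed in was not tested.

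Iron genes moved in both directions. TFRC, the transferrin receptor, fell from 138 and 163 to 32.2 and 16.9, and the ferritin genes FTH1 and FTL rose, from 219.8 and 416 to 1302 and 2159 and from 2010 and 2326 to 5613 and 6617. SLC11A1, the metal transporter of phagosomes, went from 0.217 and 0.165 to 19 and 12.4, and FBXL5, an iron sensor, from 10.7 and 12.9 to 152 and 104. STEAP4, which encodes a ferrireductase, rose from 0.362 and 0 to 24.6 and 23.9. Of 14 tested genes 6 were higher and 4 lower (median 0.05).

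Among interferon-responsive genes, 22 of 33 were tested and 13 were higher and none lower (median 0.81). The IFITM family of antiviral membrane proteins changed most: IFITM1 went from 3.32 and 4.46 to 112 and 133, IFITM2 from 90.7 and 94.0 to 1551 and 1182, and IFITM3 from 8.30 and 3.66 to 224 and 77.7. The factors STAT2 (7.49 and 7.15 before, 25.1 and 24.1 after) and IRF9 (1.40 and 2.94 before, 30.0 and 29.0 after), which transmit the type I signal, were higher. Other usual targets did not follow, with ISG15 at 4.57 and 4.28 before and 6.31 and 6.47 after and IFIT1, MX1 and RSAD2 too low to be tested. Of 22 tested cytokines and chemokines 9 were higher and 3 lower (median 0.60). IL1RN, the interleukin 1 receptor antagonist, went from 0.301 and 0.582 to 27.5 and 28.4, CCL2, a monocyte attractant, from 7.09 and 20.4 to 87.2 and 257, and TNFSF10 (TRAIL) from 0.471 and 0.453 to 51.7 and 26.8. CXCL8, interleukin 8, was at 12.9 and 47.3 before and 38.2 and 55.7 after and did not pass. Of 16 genes of the NF-kB pathway 5 were higher and 1 lower (median 0.43).

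Of 15 MHC class I and peptide loading genes 8 were higher and 4, TAP2, PSMB8, PSMB10 and ERAP2, lower (median 0.89). Without the authors' factor 8 were higher and 1 lower. B2M, the common light chain of MHC class I, rose from 2449 and 2831 to 7722 and 9027, and HLA-B, HLA-C and HLA-E rose by 1.45 to 1.89 on the log2 scale, while the MHC class II genes HLA-DRA and CD74 were at 0.05 or less in each of the 4 PLB-985 libraries. Among BCL2 family genes BCL2 fell from 20.4 and 21.2 to 2.75 and 1.49, and BCL2A1 rose from 1.53 and 3.17 to 72.6 and 33.5 and MCL1, on which neutrophil survival depends, from 42.8 and 66.2 to 145 and 149. In the nuclear envelope LMNB1 fell from 70.2 and 66.7 to 21.6 and 16.9 and LMNA rose from 92.8 and 164 to 376 and 587. Of chromatin regulators 15 of 31 were lower and 3 higher (median −0.36), among them EZH2, the Polycomb methyltransferase, from 38 and 42.8 to 9.30 and 7.66. TET2, which oxidizes methylcytosine, rose from 3.25 and 4.82 to 13.8 and 14.7.

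Markers of other cell types were counted over whole lists. Of 17 monocyte and macrophage markers 10 were tested, 6 were higher and none lower (median 1.04), and their summed level went from 6.70 and 5.50 to 142.3 and 130.9. CD14 was at 0.837 and 0.0278 before and 18.5 and 23.2 after, CD163 at 0.0275 and 0 before and 15.4 and 9.61 after, and CSF1R, which marks the monocyte lineage, at 0.250 and 0.358 before and 1.57 and 1.08 after. CD68, a lysosomal protein that neutrophils hold as well, made up most of the sum. MRC1 and C1QC were listed at 0 in all 4 libraries, and they and MARCO were too low to be tested. Of 16 eosinophil, basophil and mast cell markers 6 were tested and 2 were lower: EPX, eosinophil peroxidase, fell from 38.2 and 31.9 to 9.23 and 4.04, and PRG2, eosinophil major basic protein, from 546 and 688 to 32.7 and 47.5 (limma adjusted p = 0.046). CLC was at 48.6 and 27.1 before and 203 and 118 after and did not pass. Of 12 lymphocyte markers 3 were tested and lower, and of 16 erythroid and megakaryocyte markers only EPOR was tested, with no change that passed. The part of other cell types in the results was not tested.

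To see whether the response depended on the line, it was compared with that of HL-60 cells in the same medium, as the difference of the 2 log2 fold changes. In HL-60 cells 3519 rows were higher and 4623 lower, and 6410 rows passed in both lines in the same direction and 60 in opposite directions. The difference between the lines passed for 578 rows (4.2%), 188 with a more positive change in PLB-985 (1.36%) and 390 with a more negative one (2.83%). These counts depended on single libraries: without HL-60 DMSO and Nutridoma replicate 1 they were 729 and 1018, and without PLB-985 DMSO and Nutridoma replicate 1 they were 36 and 119. All 12 of the largest increases and 11 of the 12 largest decreases of PLB-985 also passed in HL-60. For S100A9, with 124 and 345 before and 10510 and 9463 after in HL-60, and for FPR1 the difference did not pass (0.62 ± 0.52 and 1.06 ± 0.35). For FPR2 it did: HL-60 cells held 20.9 and 20.4 before differentiation and 163 and 152 after, so that the lines differed above all in the undifferentiated state (difference 3.36 ± 0.33, limma adjusted p = 0.002). For HL-60 the sources used here name no reporter, and an effect of the PLB-985 reporter and one of the line cannot be told apart.

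Of the 18 late maturation genes tested, 3 differed between the lines. Of 38 named genes with a difference, 31 lost it under at least 1 alternative that kept all libraries, 20 of them without the replicate term. VNN2 reached 11.1 and 4.49 in HL-60, against 120 and 78.1 in PLB-985 (difference 3.64 ± 0.74). CSF3R went from 33.4 and 20.7 to 50.4 and 24 in HL-60, against 29.1 and 23.1 to 178 and 129 in PLB-985 (2.11 ± 0.42), and HP, MGAM, LILRA2, IFITM2 and IFITM3 also had a positive difference. Genes with a stronger rise in HL-60 included monocyte markers and inflammatory genes. CD14 reached 518 and 376 in HL-60, against 18.5 and 23.2 in PLB-985 (−3.63 ± 0.40, limma adjusted p = 0.0035), and CSF1R 53.4 and 89.7 against 1.57 and 1.08 (−4.60 ± 0.33). IL1B reached 144 and 775, against 10.6 and 20.3 (−4.19 ± 0.66), ICAM1 157 and 498 against 27 and 30.6, and MMP9 158 and 242 against 0.598 and 1.35 (−6.03 ± 0.31). The cell cycle inhibitor CDKN1A reached 44.1 and 127 in HL-60, against 13.1 and 16.6. In each of these 6 genes both differentiated HL-60 libraries lay above both differentiated PLB-985 libraries. Other listed genes with a negative difference were PTAFR (−2.26) and STEAP4 (−3.28).

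**Figure D5:**
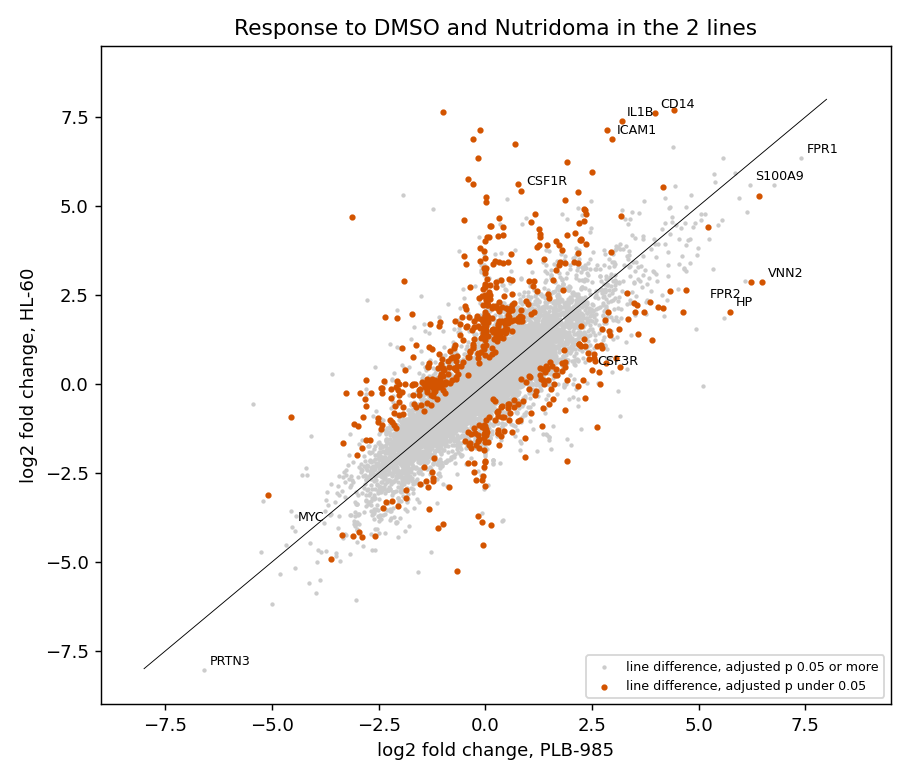
Log2 fold change of each tested row in PLB-985 (x axis) and HL-60 (y axis) cells, DMSO and Nutridoma day 6 against undifferentiated, with rows whose difference between the lines passed (adjusted p under 0.05) in orange, the others in gray and the line of equal change in black. FPR1 and S100A9 lie near the line, CD14, IL1B, ICAM1 and CSF1R above it and FPR2, VNN2, HP and CSF3R below it.

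The last comparison set DMSO and Nutridoma against DMSO in 9% FBS on day 6 and concerns the medium, since Nutridoma and serum changed together. Of 13778 rows 123 were higher with Nutridoma (0.893%) and 22 lower (0.16%), 145 in all (1.05%). FPR1 was at 152 and 185 in DMSO alone, against 333 and 211, a difference that did not pass (0.66 ± 0.25, limma adjusted p = 0.3). S100A9 and ITGAX did not pass either, at 7646 and 12640 and at 89.8 and 115 in DMSO alone. CD14 was at 0.358 and 0.539 in DMSO alone, against 18.5 and 23.2 with Nutridoma (3.91 ± 0.28, limma adjusted p = 0.0011), and CD163 at 1.14 and 0.854, against 15.4 and 9.61. IFITM1 was at 5.20 and 1.77 in DMSO alone, against 112 and 133 (4.89 ± 0.36), and IFITM2 at 184 and 177, against 1551 and 1182. SERPINA1 was at 50.1 and 78.1, against 338 and 424, and AQP9, a glycerol channel of neutrophils, at 1.61 and 1.82, against 46.5 and 26.4. MYC was less reduced with Nutridoma, at 9.70 and 6.21 in DMSO alone against 41.1 and 16.4 (1.62 ± 0.26, limma adjusted p = 0.032). CHI3L1, chitinase-like protein 1 of specific granules, was at 321 and 204 in DMSO alone, against 30.4 and 18.2 (−3.39 ± 0.34). These calls used the spread of all 12 libraries: with the 4 libraries of the comparison alone no row passed in limma, while 2566 rows had an unadjusted p under 0.05. Leaving out any 1 of those 4 libraries from the fit of both lines left 24 to 35 rows higher and 5 to 8 lower.

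Some rows were listed at 0 in 1 library although they were abundant in others. Of genes with an NCBI identifier, 51 were at 0 in 1 replicate and at 20 FPKM or more in the other of the same group, 16 of them protein-coding, and only HSPA8 among the 51 passed. HSPA8, the constitutive Hsp70 chaperone, was at 842 and 866 before and at 0 and 387 after (−5.44 ± 2.03, limma adjusted p = 0.047), so its place among the largest decreases rests on the 0 in replicate 1. MYL6, a myosin light chain used by every cell, was listed at 0 in both libraries of replicate 1 and at 554 and 990 in replicate 2. Across tested rows 106 had a 0 in both libraries of replicate 2 while both of replicate 1 had 1 or more, and 5 were the other way round. An exact 0 in such genes can be a failed estimate, and none is read as loss of expression. HSPA8 is still counted among the lower genes and in the chaperone list above.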

How the data were processed

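RNA was measured by polyA-enriched sequencing in 14 libraries. Per the submitters' notes and the study's methods, reads were aligned with STAR 2.4 to GRCh38.p5 with GENCODE release 24 and quantified with Cufflinks 2.2.1 after bcl2fastq 2.17.1.14. The authors deposited FPKM per gene, and a table of log10 values of FPKM after multiplication by 1 factor per library, with a constant of 0.0001 added. Here the deposited log10 values were turned back to normalized FPKM, and rows listed at the constant were set to 0. Rows with at least 1 normalized FPKM in 2 or more of 12 replicated libraries were kept (13778 of 60707). log2(normalized FPKM + 1) was fitted with limma 3.58.1 in R 4.3.3 (trended variance), with 6 groups, a term for the replicate and 5 residual degrees of freedom. The Benjamini-Hochberg adjustment ran over all rows tested, separately for each comparison, the change within HL-60 included. Adding 1 understates the change of low genes.

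The replicate number marks 1 of 2 runs on separate days. Deviations from the group means of libraries with the same number correlated with r from 0.653 to 0.852 over 15 pairs of groups, and 0.766 for the groups compared. The replicate term removed the part of this difference between runs that all groups shared. P-values therefore measure how far the groups differed in what remained, pooled over the 6 groups of both lines and moderated across genes. With 2 libraries per group, they do not measure the spread within 1 group. The tables hold no counts, so depth is unknown, and 0 columns of other series were present. Days 2 and 4 have 1 library each and were not used. The procedure was tested on data simulated with the same design. It recovered 56.7% of changes of 1 on the log2 scale and 90.4% of changes of 2, with a mean of 7.1 false calls. A gene that did not pass can thus have changed 2-fold.

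Genes named are the 12 that rose most and the 12 that fell most among those that passed, the 8 highest in each group, members of the gene lists, those with a difference between lines, and those listed at 0 in 1 replicate and at 20 FPKM or more in the other, except where the text says otherwise. Some genes and 1 gene list that the rule names are not reported here. The lists and members were chosen with earlier results of these data known. Promoters came from RefSeq tables (GRCh38.p14). Alternatives left out the replicate term, the factor, the filter or each library, and changed the scaling, constant, filter and variance trend. Tables and figures used Python 3.11.15, numpy 2.4.6, pandas 2.3.3 and matplotlib 3.10.9.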

Additional observations from a re-analysis of the deposited data

Results flagged for a closer look

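The following named genes differed in their response between PLB-985 and HL-60 cells by the test of the difference itself (limma, adjusted p under 0.05, 2 libraries per group), given as the log2 change in PLB-985 minus that in HL-60. A more positive change in PLB-985 was found for HP (3.71), VNN2 (3.64), FPR2 (3.36), LILRA2 (2.68), MGAM (2.60), CAPG (2.17) and CSF3R (2.11). Smaller positive differences were found for IFITM3 (1.73), CEBPD (1.71), CCND2 (1.57), IFITM2 (1.55), SIGLEC5 (1.49), ISG15 (1.37), SERPINA1 (1.15) and HLA-C (1.01). A more negative change in PLB-985 was found for SLAMF8 (−7.81), MMP9 (−6.03), EGR1 (−5.91), CSF1R (−4.60), IL1B (−4.19), DUSP2 (−3.94), ICAM1 (−3.92) and PTGS2 (−3.77). It was also found for CD14 (−3.63), ACTL8 (−3.62), CDKN1A (−3.44), STEAP4 (−3.28), CD74 (−2.35), PTAFR (−2.26) and DEFA1B (−1.99). Smaller negative differences were found for CTSB (−1.83), CERS1 (−1.80), DDN (−1.67), HLA-DRA (−1.64), CTSS (−1.36), GNA15 (−1.25), CEACAM8 (−1.17) and PTGES2 (−1.08). Of these 38 differences 7 passed under every alternative that kept all libraries and 31 were lost under at least 1. CD74, HLA-DRA and PTGS2 were at or near 0 in PLB-985, so their values reflect a rise in HL-60.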

How the results depend on the processing

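For DMSO and Nutridoma against undifferentiated PLB-985 cells, every alternative gave counts within 1.5 times of 3303 higher and 4934 lower, and leaving out 1 library gave 2390 to 2775 and 3771 to 4169. Without the replicate block 2617 and 3735 rows passed. Of 216 named genes that passed, 186 did so under every alternative that kept all libraries and tested them, and 25 were lost without the replicate block. The 30 lost under at least 1 of these were ACTG1, ATF3, BPI, CD33, CD63, CEBPA, CEBPE, CHI3L1, CLEC12A, CXCR2, CXCR4, DNAJB1, ERAP2, FASN, GUSB, HSPA8, JUND, KLF2, MMP9, MPO, MT-ND5, NDUFA2, PLA2G4A, PRG2, PSMB10, PSMB8, S100P, SCD, SREBF1 and TLR4. Leaving out 1 library lost 26, of which CSF1R, DUSP1, FCGR3B, ITGA5 and LTB4R are not among the former. CCNA2 and NHP2 (CCNA2, log2 fold change 0.38 and NHP2, log2 fold change 1.53, neither passing) changed sign without PLB-985 undifferentiated replicate 1, where both were listed at 0: over the libraries left out CCNA2 ran from −2.62 to 3.39 and NHP2 from −2.11 to 5.17.

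The difference between the lines (188 and 390) was less stable. It gave 70 and 202 without the replicate block, 33 and 94 with the libraries compared alone and the replicate block, and 236 lower with a filter of 5 normalized FPKM. Leaving out 1 library gave 36 to 729 higher and 119 to 1018 lower. For DMSO and Nutridoma against DMSO (123 and 22), 60 and 10 passed without the replicate block, 0 and 0 with the libraries compared alone and the replicate block (2566 with an unadjusted p under 0.05 in limma), and 80 higher with no filter on low values. With the 6 PLB-985 libraries alone, an alternative chosen after seeing the data, 78 and 12 passed, and leaving out 1 library gave 24 to 35 and 5 to 8. The causes were not tested. With 2 libraries per group and no counts, low levels have no known counting error.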
